A study of Mus musculus with 2 samples.

Results

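The killer cell lectin-like receptor (Klr) genes described here are Klrb1a, Klrb1c, Klrb1f, Klrc1, Klrc2, Klrd1, Klrk1, Klrg1, Klre1 and Klra1. They are 10 of the 27597 gene names that had a probe on the arrays. Every non-control probe was taken whose gene name, accession or known synonym led to one of them, which gave 16 probes of their own and 2 probes of other Klr genes that list an accession of a member. RNA of double-positive (DP) thymocytes, the thymus stage that carries both CD4 and CD8, was compared on 2 mouse oligonucleotide arrays with 2 channels each. The tested cells were labelled Bcl11bF/FCD4Cre/Tcra-/- and carried Cy5, and the control cells were labelled TCRa-/- and carried Cy3. Both genotypes thus lacked Tcra, so their thymocytes do not assemble the alpha beta T cell receptor and are not selected. In the deficient cells, Cre driven by Cd4 control sequences acts on floxed Bcl11b, a zinc finger transcription factor gene of the T lineage. Neither Cre nor a floxed allele appears in the label of the control cells. The 2 arrays are biological replicates 1 and 2 with 1 sample of each genotype on either. The labels do not give the age of the mice, the number of mice behind a sample or how DP cells were obtained. No array had the dyes reversed, so an effect of genotype and an effect of dye or of Cre itself cannot be told apart.

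Klr proteins are C-type lectin-like receptors of the cell surface, best known from natural killer (NK) cells and found also on NKT cells, gamma delta T cells and activated CD8 T cells. Most of their genes lie side by side in one cluster, the NK gene complex. Some members carry inhibitory motifs in their tails and recruit phosphatases such as the product of Ptpn6, and others pair with adaptors such as those encoded by Tyrobp, Hcst and Fcer1g and activate the cell. Their ligands are MHC class I molecules, stress-induced relatives of these, Clec2 proteins and cadherins. Bcl11b is known for restraining NK-type genes in T lineage cells.

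Of the 10 genes, 6 had a probe that met the detection filter, which asked that the same genotype, either one, be well above background on each of the 2 arrays. All of these 6, namely Klrb1c, Klrb1a, Klrd1, Klrc2, Klrb1f and Klrk1, were higher in deficient cells on both arrays, as were 36.5% of the 14925 genes tested. At least 2-fold higher on both arrays were 4 of them, Klrb1c, Klrb1a, Klrd1 and Klrc2, against 0.817% of all genes tested. None of the 6 was lower on both arrays, against 38.5% of all genes tested, and 0.275% of all genes were at least 2-fold lower on both. Limma's moderated test of the mean ratio over all genes, with Benjamini-Hochberg adjustment at 0.05, called 0 of the 6 and 0 of the 14925 genes (0%). At an unadjusted p under 0.05 in that test stood all 6, and 4358 of the 14925 genes tested, so such p-values were common among all genes. A probe could meet the filter through its deficient signal alone, which favours genes that are high there. Those of Klrk1 and the tested one of Klrc2 did so. Of the 4 tested genes with control signals well above background on both arrays, 3 were at least 2-fold higher on both. The share over all genes with such control signals was not computed, so this count has no comparison. These counts are descriptions of the measured genes and not of all 10. The other 4 genes, Klrc1, Klrg1, Klre1 and Klra1, were well above background in no channel by their own probes. In RNA of bulk cells, more transcript per DP thymocyte and more cells of another type among them cannot be told apart.

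The other analyses of the same 2 arrays gave different counts of calls. Limma on separate channels, with the array as a block, called 5 of the 6 as higher, all but Klrk1, against 4.76% of all genes, and without the block it called 0 of the 6. With each array centred on its median in place of loess it called 4, Klrb1c, Klrb1a, Klrd1 and Klrc2, against 5.88% of all genes, and that centring raised the median of all genes to 0.13. With the processed signals of the scanner software it called 2, Klrb1a and Klrd1, against 0.757% of all genes. By the processed signals all 6 were at least 2-fold higher on both arrays, against 1.8% of all genes. The settings share the same 2 arrays and are no independent support.

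Between 50.5% and 56.5% of spots were well above background in the channels of the 2 arrays. The 2 probes of Bcl11b itself gave log2 ratios of -1.40 and -0.28 for one and -1.37 and -2.16 for the other on replicates 1 and 2, and whether either lies in the deleted part was not examined. All 10 DP thymocyte markers were measured, among them Cd4, Cd8a and Rag1. Their summed processed signals were 193915 and 169470 in deficient cells, against 250764 and 218468 in control cells. Most of these sums came from the bright genes Cd8a, Cd8b1 and Rag1, whose ratios depended on the normalisation. Their mean log2 ratios were -0.34, 0.07 and -0.74 by the processed signals, against 0.01, 0.48 and -0.27 after loess. The difference between the sums is therefore no measure of DP marker RNA free of the normalisation.

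**Figure D1:**
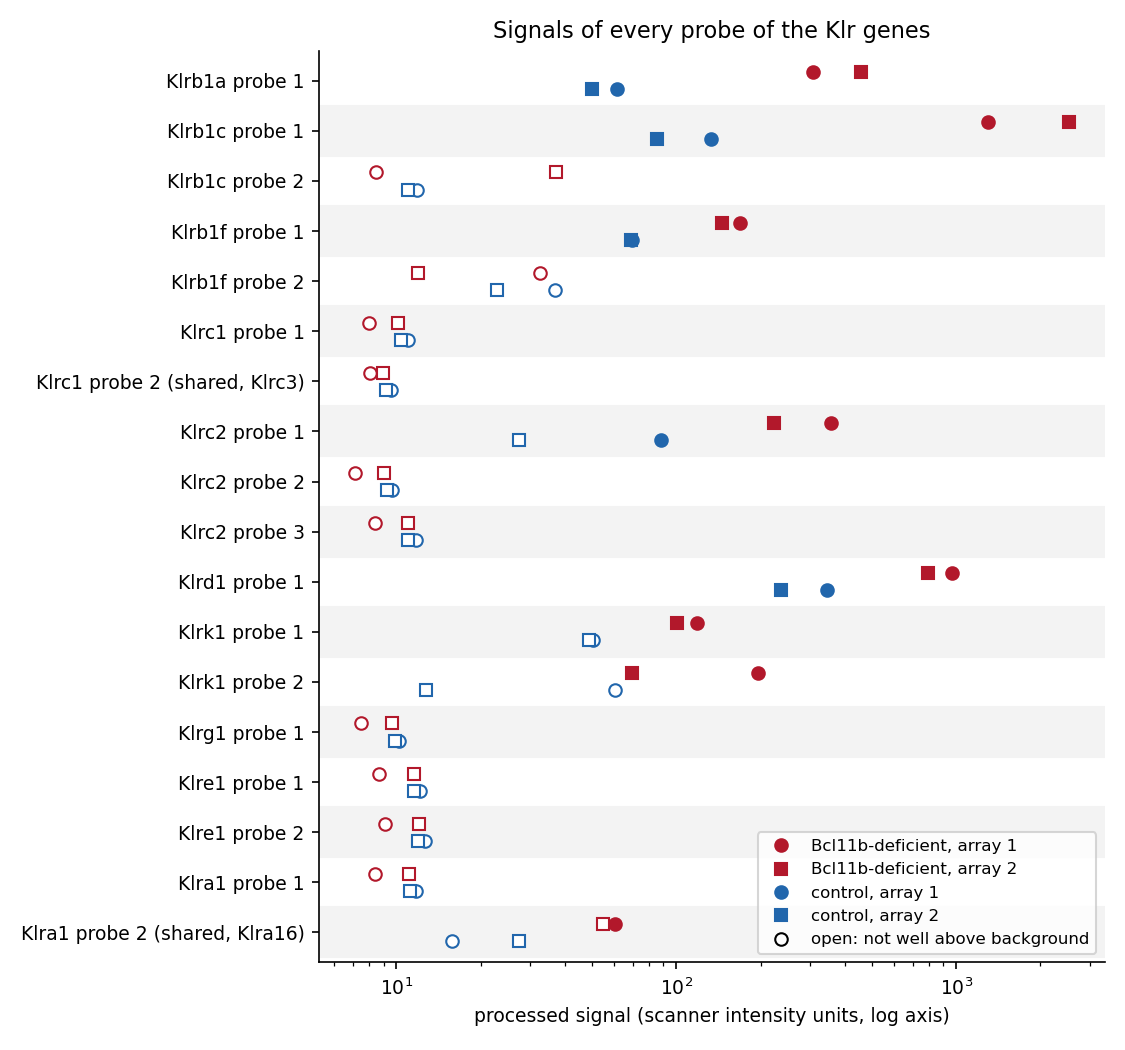
Processed signal in scanner intensity units, on a log axis, of each of the 18 probes of the Klr genes in Bcl11b-deficient cells (red) and control cells (blue) on array 1 (circles) and array 2 (squares), with open symbols where the signal was not well above background. Klrb1c probe 1 shows the widest gap, 1299 and 2529.9 in deficient cells against 133 and 85.6 in control cells, and 9 of the 16 own probes are open in all 4 channels.

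Since several of these genes were higher together, their promoters are shown, as the 250 bases before the annotated start in the RefSeq annotation of GRCm38.p6, read along the gene's strand. Such entries were at hand for 8 of the 10 genes, all but Klrd1 and Klrg1. The 5 tested genes with an entry are printed, with the letters TGTGGT, the core recognised by RUNX transcription factors, in capitals whichever strand it was found on. Klrb1a lies at chr6:128622935-128623184 on the minus strand, Klrb1c at chr6:128788642-128788891 on the minus strand, Klrb1f at chr6:129045651-129045900 on the plus strand, Klrc2 at chr6:129660597-129660846 on the minus strand (the one of its 2 starts that lies further upstream) and Klrk1 at chr6:129623865-129624114 on the minus strand.
Klrb1a: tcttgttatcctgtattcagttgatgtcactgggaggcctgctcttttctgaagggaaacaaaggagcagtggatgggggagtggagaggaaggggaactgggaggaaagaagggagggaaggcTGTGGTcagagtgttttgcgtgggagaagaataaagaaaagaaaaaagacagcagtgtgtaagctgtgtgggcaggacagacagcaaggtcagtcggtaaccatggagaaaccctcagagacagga
Klrb1c: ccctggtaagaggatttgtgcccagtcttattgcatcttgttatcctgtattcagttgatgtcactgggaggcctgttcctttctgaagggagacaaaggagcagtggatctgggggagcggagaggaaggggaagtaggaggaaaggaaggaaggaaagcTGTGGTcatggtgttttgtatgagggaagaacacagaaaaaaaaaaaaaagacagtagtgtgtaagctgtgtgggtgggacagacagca
Klrb1f: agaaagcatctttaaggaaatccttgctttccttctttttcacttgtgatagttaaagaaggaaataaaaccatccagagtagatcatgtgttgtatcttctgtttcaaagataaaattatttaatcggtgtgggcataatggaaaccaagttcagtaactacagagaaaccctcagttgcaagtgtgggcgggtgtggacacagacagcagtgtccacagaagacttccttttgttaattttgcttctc
Klrc2: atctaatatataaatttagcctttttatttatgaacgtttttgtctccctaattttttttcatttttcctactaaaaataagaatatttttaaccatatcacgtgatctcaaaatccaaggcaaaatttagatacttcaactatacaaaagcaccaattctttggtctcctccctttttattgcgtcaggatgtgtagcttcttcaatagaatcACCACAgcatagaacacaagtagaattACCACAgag
Klrk1: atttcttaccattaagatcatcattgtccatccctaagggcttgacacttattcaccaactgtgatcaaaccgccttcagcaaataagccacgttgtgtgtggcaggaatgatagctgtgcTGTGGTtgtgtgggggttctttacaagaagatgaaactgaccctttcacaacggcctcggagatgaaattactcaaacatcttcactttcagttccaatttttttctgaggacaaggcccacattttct
The RUNX core was present in an entry of 7 of the 8 genes, all but Klrb1f. By entry, it was in 8 of their 10, against 14% of all 32851 promoter windows of the same length. Klrb1f was higher on both arrays without the core. Klrc1, Klre1 and Klra1 hold it in an entry, but were well above background in no channel by their own probes. The 2 entries of Klrc2 overlap and hold the same 2 cores. In Klrb1a and Klrb1c it begins 126 and 89 bases before the start and runs on into TGTGGTCA, which also spells, on the opposite strand, TGACCA, the motif known for human BCL11A, a relative of Bcl11b. TGACCA was found in those 2 genes alone among the 8, which is 2 of the 10 entries, and in 11.4% of all windows. The joint run TGTGGTCA stood in 1.2% of all windows. The T-box letters AGGTGT, searched on both strands, were in none of the 8 genes' entries and in 11.8% of all windows. The promoters of Klrb1a and Klrb1c align over 210 bases with 89.5% identity, so their shared letters are not separate occurrences. Klrb1a and Klrb1f align over 142 bases with 64.8% identity. These are matches of letters only, and no binding was measured.

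Among the Klrb1 genes, which encode the NKR-P1 receptors, Klrb1c encodes the activating receptor known as the NK1.1 antigen of C57BL/6 mice. Its brighter probe, at chr6:128744204-128744263 in the mm8 build that the array files use, had processed signals of 1299 and 2529.9 in deficient cells, against 133 and 85.6 in control cells, on replicates 1 and 2. Both deficient signals lay far above both control signals, and the deficient signal was higher on replicate 2 while the control signal was lower there. The log2 ratio after background correction and loess normalisation was 2.42 on the first array and 3.32 on the second, and averaged 2.87 ± 0.25 (SE moderated by limma, 2 arrays; limma adjusted p = 0.0725, and 0.0214 on separate channels). This mean ranked 4 among 14925 genes. From the processed signals the mean was 4.09 ± 0.42 (limma adjusted p = 0.0501). The other probe of Klrb1c, at chr6:128750371-128750430, was well above background in no channel, with 8.47 and 37.2 in deficient cells and 11.8 and 11.0 in control cells.

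Klrb1a, which encodes another activating NKR-P1 receptor, had 309 and 457 in deficient cells, against 61.6 and 49.9 in control cells (probe at chr6:128584116-128584175). All 4 signals were well above background, the groups did not overlap, and replicate 2 again held the higher deficient and the lower control signal. Lack of overlap, for this gene and those below, describes 2 signals against 2, and its share over all genes was not computed. Its log2 ratios were 1.23 and 1.71 and averaged 1.47 ± 0.15 (limma adjusted p = 0.0753, and 0.0236 on separate channels). The processed signals gave a mean of 2.76 ± 0.25 (limma adjusted p = 0.0497).

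Klrb1f encodes an NKR-P1 receptor that binds Clec2 proteins. Its brighter probe, at chr6:129022542-129022601, had 169 and 145 in deficient cells, against 69.4 and 69.2 in control cells. The groups did not overlap, and the 2 control signals were nearly equal. The log2 ratios of 0.60 and 0.49 averaged 0.54 ± 0.08 (limma adjusted p = 0.0840, and 0.0297 on separate channels), and the processed signals gave 1.18 ± 0.13 (limma adjusted p = 0.0506). That probe bears the name of Klrb1f in the array files, but its accession was not matched to RefSeq. The probe that was matched by accession, at chr6:129019913-129019972, was well above background in no channel, with 32.6 and 11.9 in deficient cells and 37.0 and 22.9 in control cells, so its signals do not show the difference.

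Klrd1 encodes CD94, the common partner of the NKG2 receptors. Its probe, at chr6:129564066-129564125, had 964 and 791 in deficient cells, against 347 and 236 in control cells. Every signal was well above background, the groups did not overlap, and replicate 1 was the brighter in both genotypes. The log2 ratios of 1.23 and 1.33 had a mean of 1.28 ± 0.07, the highest mean among the genes of this receptor family after Klrb1c and Klrb1a (limma adjusted p = 0.0671, and 0.0199 on separate channels). The processed signals gave 1.61 ± 0.13 (limma adjusted p = 0.0465), and this gene's values moved least between the loess ratios and the processed signals.

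Klrc2 encodes NKG2C, the activating partner of CD94. Its probe at chr6:129614414-129614473 had 356 and 223 in deficient cells, against 88.4 and 27.5 in control cells. The groups did not overlap, but the control signal was well above background on replicate 1 only. Log2 ratios of 1.18 and 1.11 averaged 1.15 ± 0.07 (limma adjusted p = 0.0671, and 0.0292 on separate channels), and the processed signals gave 2.52 ± 0.28 (limma adjusted p = 0.0526). The other probes of Klrc2, at chr6:129623118-129623177 and chr6:129626303-129626362, were well above background in no channel. They are in the files under this gene's name only, without an accession matched to RefSeq.

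Klrc1 encodes NKG2A, the inhibitory partner of CD94. Its own probe had 7.96 and 10.2 in deficient cells and 11.0 and 10.4 in control cells, and was well above background in no channel. A probe named for its neighbour Klrc3 that also lists an accession of Klrc1 had 8.06 and 8.96 in deficient cells and 9.61 and 9.18 in control cells, again in no channel well above background. No difference in Klrc1 was detectable at these signals.

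Klrk1 encodes NKG2D, an activating receptor for stress-induced ligands that signals through the adaptor encoded by Hcst. Its probe at chr6:129577539-129577598 had 119 and 101 in deficient cells, against 50.4 and 48.7 in control cells. Its other probe, at chr6:129578157-129578446 and placed by name only, had 196 and 69.4 in deficient cells, against 60.4 and 12.8 in control cells. By either probe the groups did not overlap, and the deficient signal was well above background on both arrays while the control signal was so on neither. By the first probe Klrk1 was 1.20-fold higher. That is its plain ratio and no lower bound, since its control signal exceeded the lowest signal well above background. By the second probe it was at least 1.33-fold higher. This bound takes, on the normalised log2 scale, the deficient mean over the lowest signal well above background or the control signal, whichever was higher. The first probe stood for the gene in the fit, with log2 ratios of 0.30 and 0.23 that averaged 0.26 ± 0.07 (limma adjusted p = 0.133, and 0.0730 on separate channels).

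The remaining receptor genes gave no signal to compare. Klrg1, whose product is an inhibitory receptor for cadherins and which lies apart from the others at chr6:122236571-122236630, had 7.46 and 9.67 in deficient cells and 10.2 and 9.86 in control cells. Klre1, whose product pairs with Klri proteins, had 8.68 and 11.5 in deficient cells and 12.2 and 11.5 in control cells by one probe, and 9.10 and 12.0 in deficient cells and 12.7 and 12.0 in control cells by the other. Klra1, the inhibitory Ly49A receptor gene, had 8.38 and 11.1 in deficient cells and 11.8 and 11.1 in control cells. In each case no channel was well above background. The genotypes overlapped by both probes of Klre1, while the dim deficient signals of Klrg1 and Klra1 lay just below the dim control signals, which is no measured difference. The Klra1 probe is named Klra22 in the array files, a synonym of Klra1, and lists accessions of both Klra1 and Klra4. A probe of Klra16 that lists an accession of Klra1 had 60.5 and 55.0 in deficient cells, against 15.8 and 27.5 in control cells, and cleared background in deficient cells of replicate 1 only.

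**Figure D2:**
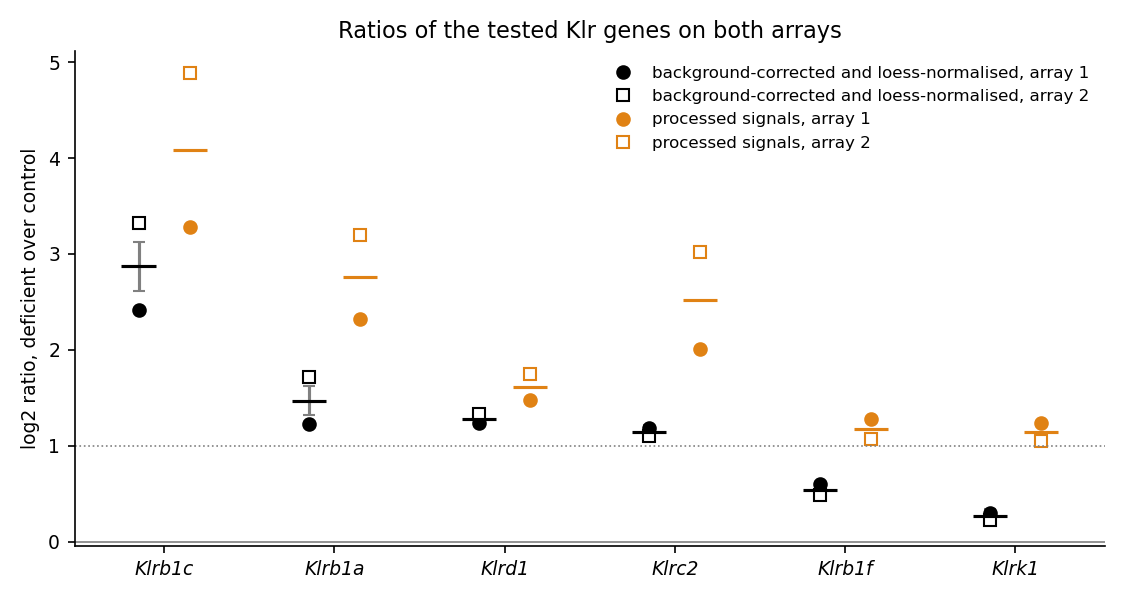
Log2 ratio of deficient over control cells for the 6 tested Klr genes on array 1 (filled circles) and array 2 (open squares), after background correction and loess normalisation (black) and from the processed signals (orange), with a bar at the mean and the SE moderated by limma in grey; the dotted line marks a 2-fold difference. All points lie above 0, those of Klrk1 over control signals not well above background, and the processed signals lie above the loess ratios, by 4.09 against 2.87 for Klrb1c.

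The order of the mean loess ratios was Klrb1c, Klrb1a, Klrd1, Klrc2 and Klrb1f. Klrk1 is given no place in this order, as its control signal cleared background on neither array. The ratio of Klrc2 rests on a control signal that cleared background on replicate 1 only. Klrb1c lay above these others on both arrays. The values of Klrb1a and Klrd1 met on replicate 1, where both read 1.23, and those of Klrd1 and Klrc2 were 1.23 and 1.18 there. Klrb1f lay below these on both arrays. The order was another by the processed signals, where Klrc2 (2.52) lay above Klrd1 (1.61). The median of the 6 mean ratios was 1.21, and the same median over all 14925 genes was -0.0034. Taken by array, the median of the 6 was 1.21 on replicate 1 and 1.22 on replicate 2. By the processed signals the medians were 2.06 for the 6 and -0.0292 for all genes.

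**Figure D3:**
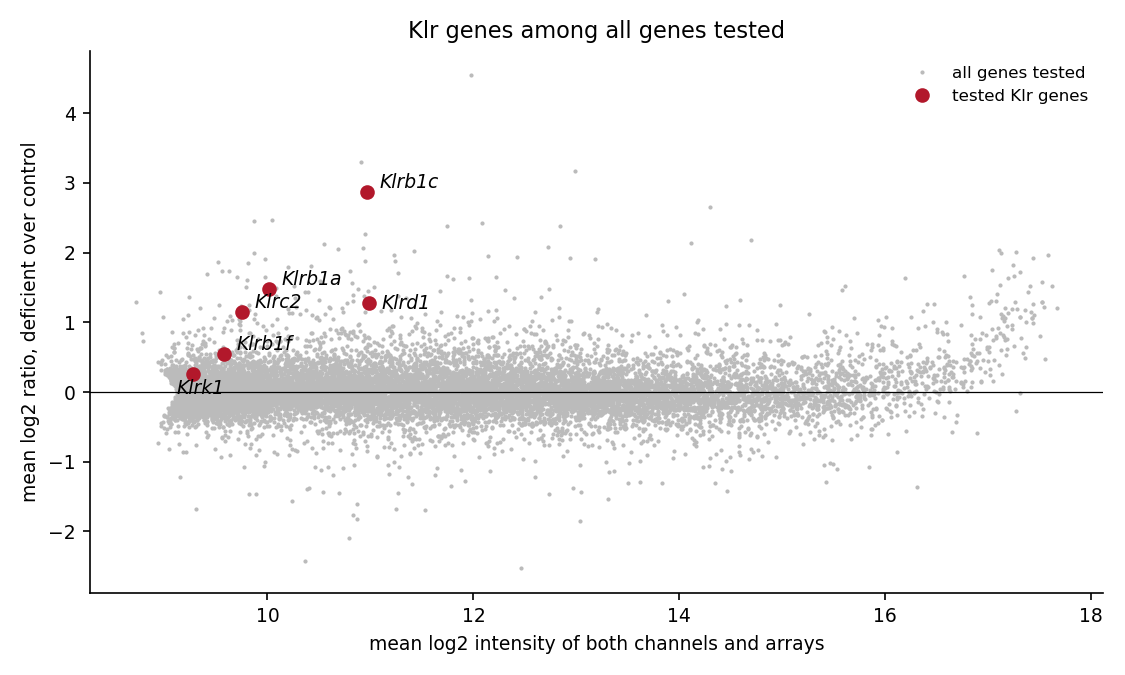
Mean log2 ratio of deficient over control cells against the mean log2 intensity of both channels and arrays, for all 14925 genes tested (grey) and the 6 tested Klr genes (red). Klrb1c ranks 4 by ratio at a mean log2 intensity of 10.97, and Klrk1, Klrb1f, Klrc2 and Klrb1a lie in the dim part of the range, where loess ratios are smaller than those of the processed signals for the same genes.

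The genes whose pair of ratios lay nearest to that of Klrb1c, by Euclidean distance over the 2 arrays, were Itgb7, Sting1 and Heyl. Itgb7, an integrin subunit gene, had log2 ratios of 2.08 and 3.24 at a distance of 0.347. Sting1, which encodes the adaptor of cytosolic DNA sensing, had 2.61 and 3.73 at a distance of 0.448. Heyl, a transcriptional repressor gene of the Notch pathway, had 1.98 and 2.94 at a distance of 0.582, and was at least 3.97-fold higher, as its control signal was well above background on neither array. Likeness over 2 arrays is a description only. In all of these genes, as in Klrb1c, the ratio was larger on replicate 2, which follows from their choice by nearness to it.

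Apart from Klrg1, the probes of these genes that have a position in the array files lie between chr6:128584116 and chr6:130329996 in mm8, a stretch of 1.746 Mb with probes of 51 genes, 24 of which were tested. The 6 tested Klr genes made up 6 of the 24 and all 4 of the genes at least 2-fold higher on both arrays. Of the other 18, 0 were at least 2-fold higher and 0 at least 2-fold lower on both, 9 were higher and 4 lower on both. The 13 of these 18 that are not Klr genes had a median ratio of 0.06, with single means between -0.63 and 0.65, and 6 of them were higher and 3 lower on both arrays. Tested Klr genes with mean ratios above 1 thus had tested non-Klr neighbours with mean ratios no higher than 0.65. On single arrays the ratios of these 13 ran from -0.92 to 1.14, both on replicate 2, where Klrc2 read 1.11.

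**Figure D4:**
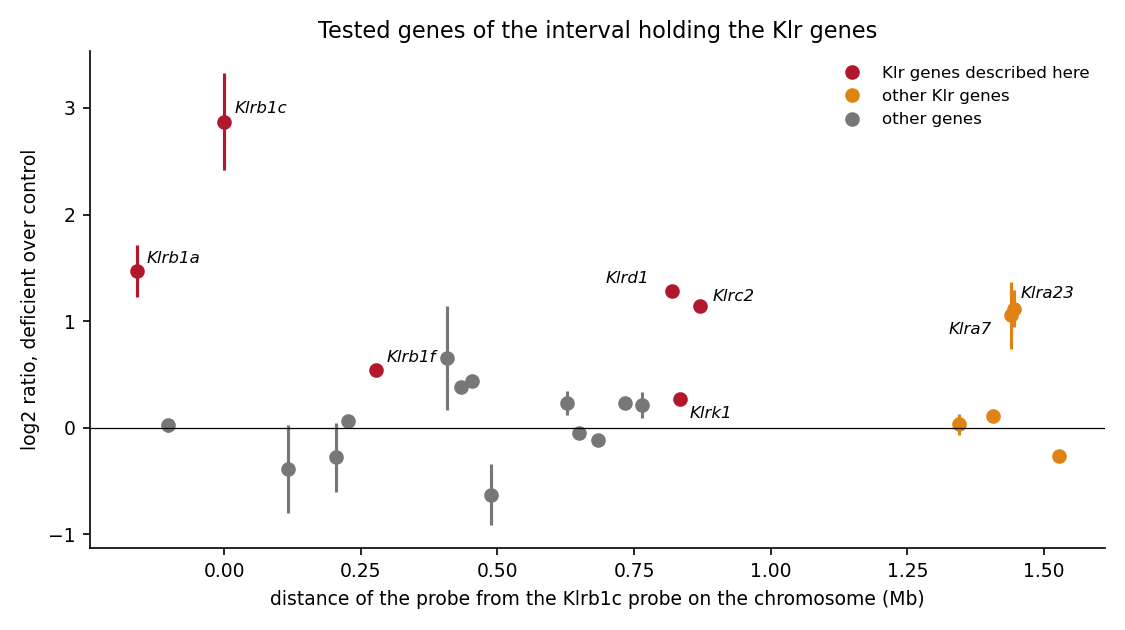
Log2 ratio of deficient over control cells of the 24 tested genes in the stretch, against the distance of the probe from that of Klrb1c in Mb, with a dot at the mean and a line between the 2 arrays. Tested Klr genes described here are red, other Klr genes orange and other genes grey. The means of the 13 grey genes lie between -0.63 and 0.65, and that of Klrb1c at 2.87.

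Of 29 other Klr genes, 23 had a probe and 7 were tested, with 4 higher and 2 lower on both arrays, against 36.5% and 38.5% of all genes tested, and a median of 0.11. Of the 16 that had a probe but were not tested, 13 were well above background in no channel. Limma called 0 of the 7, and on separate channels called 2 as higher, Klra23 and Klra7, which encode Ly49 receptors, against 4.76% of all genes. Klra23, the largest ratio and the brightest of the 7, had 463 and 266 in deficient cells, against 110 and 52.2 in control cells, with log2 ratios of 1.29 and 0.94 (mean 1.12 ± 0.12; limma adjusted p = 0.0753, and 0.0331 on separate channels) and a control signal that cleared background on 1 array. Klra7, named after its values were seen, had 426 and 206 in deficient cells, against 89.9 and 62.4 in control cells, with log2 ratios of 1.36 and 0.74 (mean 1.05 ± 0.18; limma adjusted p = 0.0901, and 0.0497 on separate channels). In both genes replicate 1 was the higher in both genotypes and the genotypes did not overlap. The Klra23 probe lists an accession of Klra7 as well, so the values of these genes are not independent.

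The receptors' adaptors and signalling genes were all measured, 16 of 16, with 10 higher and 4 lower on both arrays and a median of 0.20. Limma called 0 of them, and on separate channels 1 as higher, the kinase gene Syk, and 2 as lower, the receptor chain gene Cd247 and the lipid phosphatase gene Inpp5d. Over all genes that analysis called 4.76% as higher and 3.83% as lower. Fcer1g, whose product is an adaptor of activating receptors, had the largest mean ratio, 0.83 ± 0.26 from 0.37 and 1.29 (limma adjusted p = 0.155), with 2860 and 1965 in deficient cells, against 2196 and 717 in control cells. Its genotypes overlapped, since the control signal of replicate 1 was above the deficient signal of replicate 2. Lck, a T cell kinase gene and the brightest, read 0.18 and 0.15 after loess (mean 0.16 ± 0.07, limma adjusted p = 0.226), and its mean by the processed signals had the opposite sign, -0.18. The adaptor genes named after their values were seen, Tyrobp and Hcst, read 0.07 and 0.39, and 0.10 and 0.39, on replicates 1 and 2.

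Of 21 ligand genes, 9 were tested, with 3 higher and 2 lower on both arrays and a median of -0.002. Limma called 0 of them, and 0 on separate channels. H2-K1, a class I gene, had the largest mean ratio, 0.75 ± 0.19 from 0.41 and 1.09 (limma adjusted p = 0.123), and H2-T23, the brightest, whose product Qa-1 is bound by CD94 and NKG2 receptors, read -0.25 and -0.23 (mean -0.24 ± 0.07, limma adjusted p = 0.140). Of 12 genes for NK receptors encoded elsewhere in the genome, 6 were tested, with 5 higher and 0 lower on both arrays and a median of 0.49. Limma called 0 of these 6, and on separate channels 2 as higher, Cd160 and Cd244a, against 4.76% of all genes. Cd160, the largest, had 103 and 132 in deficient cells, against 12.6 and 11.6 in control cells, and was at least 1.33-fold higher, since the control signal cleared background on neither array. Cd96, the brightest, read -0.03 and 0.08.

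Markers of other cell types were read beside these values. Of 10 NK cell markers that are not Klr genes 7 were tested, with 3 higher and 1 lower on both arrays and a median of 0.21. Their summed processed signals were 11119 and 8787 in deficient cells, against 7984 and 5731 in control cells, so the sum was higher on both arrays. Most of that difference came from Gzma on either array. For the 6 Klr genes the sums were 3215 and 4248 in deficient cells, against 749.9 and 517 in control cells. Gzma, a granule protease gene and both the largest and brightest NK marker, had 5708 and 5500 in deficient cells, against 3040 and 3166 in control cells (mean log2 ratio 0.81 ± 0.08; limma adjusted p = 0.0734, and 0.0196 on separate channels). Among the 10 NK markers, all 7 tested ones (Gzma, Eomes, Prf1, Nkg7, Ccl5, Cma1 and Tbx21) were well above background in all 4 channels, whereas Ncr1 was so in 1 of 4 channels, a deficient one, and Gzmb and Itga2 in none. Nkg7, named with the next gene after values were seen, read 0.51 and 0.40, and Prf1, the perforin gene, read -0.09 and -0.34. The part of NK cells in the Klr values was not tested.

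Macrophage or monocyte markers had 9 of 10 tested, with 7 higher and 1 lower on both arrays, a median of 0.32 and sums of 34471 and 33344 in deficient cells, against 30326 and 12174 in control cells. Lyz2, a lysozyme gene and their largest and brightest, read 0.31 on replicate 1 and 1.75 on replicate 2. B cell markers had 6 of 8 tested, with 1 higher and 2 lower on both arrays, a median of -0.14 and sums of 42812 and 40921 in deficient cells, against 34853 and 17932 in control cells, most of it from Ighm, which read 0.71 and 1.60. The macrophage and B cell sums parted more on replicate 2, where the control sum was lower, and so did the sums of the 6 Klr genes given above. Lyz2 made up most of the macrophage sum, so each of these 2 marker sums largely follows 1 gene. Ighm was the 1 B cell marker higher on both arrays. Cd79b (-0.62 and -0.31) and Ms4a1 (-0.93 and -0.12), named after their values were seen, were lower on both. By medians of the log2 ratios, the macrophage list read 0.31 on replicate 1 and 0.42 on replicate 2, and the 6 Klr genes 1.21 and 1.22. Gamma delta T cell markers had 3 of 9 tested and all 3 lower on both arrays. Blk, a kinase gene with the largest ratio of these in size, read -0.17 and -0.23. The receptor constant genes Trdc, Tcrg-C1, Tcrg-C2 and Tcrg-C4 were not measured here. DP thymocyte markers had 10 of 10 tested, with 2 higher and 8 lower on both arrays and a median of -0.24. On separate channels limma called Cd8b1 as higher and Rag2 and Cd3d as lower among the DP markers, Gzma as higher among the NK markers, and 0 of the macrophage, B cell and gamma delta markers, against 4.76% as higher and 3.83% as lower over all genes. On the loess ratios it called 0 of any marker list. Rag2, a recombinase gene with the largest ratio, read -0.43 and -0.71, and Cd8b1, the brightest, read 0.49 and 0.47 after loess and a mean of 0.07 by the processed signals. The part of macrophages, B cells and gamma delta T cells in the Klr values was not tested.

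**Figure D5:**
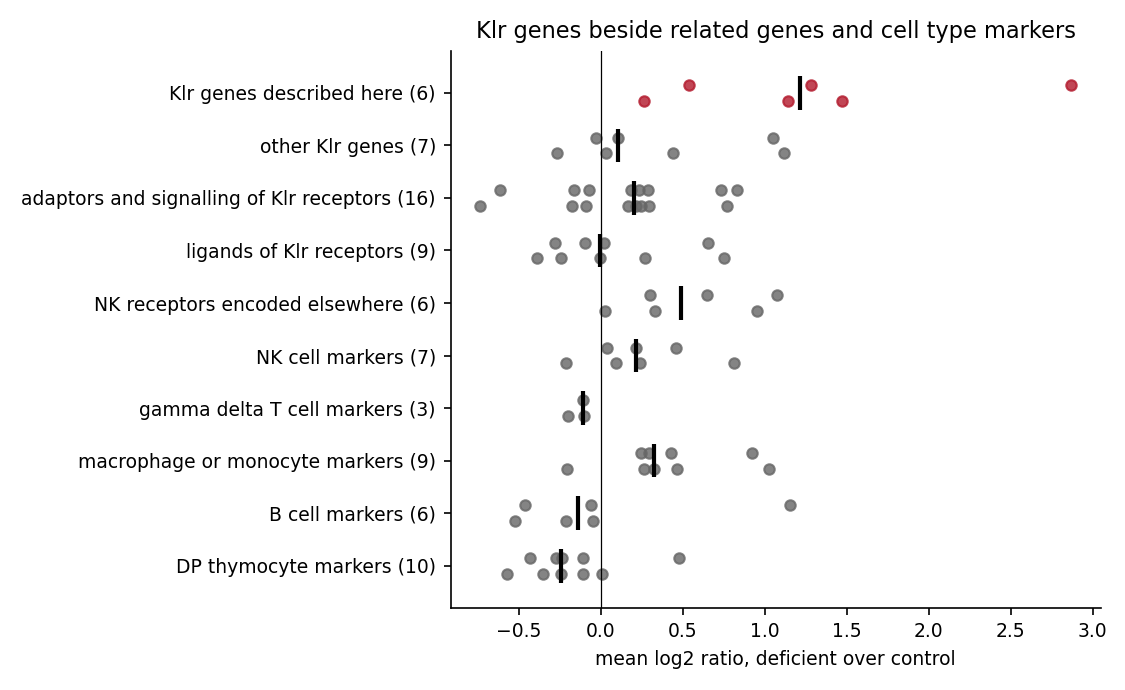
Mean log2 ratio of deficient over control cells of each tested gene (dots) and the median (bar) in the tested Klr genes, the related gene groups and the cell type marker lists, with the number of tested genes in brackets. The 6 Klr genes have a median of 1.21, and the medians of the other lists lie between -0.24 for DP thymocyte markers and 0.49 for NK receptors encoded elsewhere.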

How the data were processed

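Two-channel scans of 2 arrays, 1 deficient and 1 control sample on each, were read with Agilent Feature Extraction 9.5.3.1, per the submitters' processing notes. The deposited mean and local background signals are uncorrected scanner intensity values. The deposited processed signals are intensity values that the authors' software corrected for background and dye, with substitutes for very dim spots, per the file headers. The deposited log ratio, and the value table of the series, hold the log10 of processed Cy5 over Cy3.

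Signals were corrected by normexp (offset 50) and normalised by loess within arrays, with controls at weight 0 (R 4.3.3, limma 3.58.1, statmod 1.5.0). Spots marked as outliers, 108 and 116, were left out, and spots of a probe were averaged. Of 41174 probes, 21539 passed the detection filter, and the brightest stood for each of 14925 genes. Log2 ratios are deficient over control. Limma tested their mean against 0 with 1 residual degree of freedom, adjusting over all genes by the Benjamini-Hochberg method. The code was tested on simulated data. The array pairs the channels by design. The labels call the arrays biological replicates but do not name the mice. The p-values rest on the spread between these arrays, which limma moderates towards a variance shared over all genes. Probes took current symbols from RefSeq GRCm38.p6 by accession, symbol or synonym.

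The Klr genes and all lists were chosen with earlier results of these data known. All 10 Klr genes are named. Of each list the tested gene with the largest ratio in size and the brightest are named, since none was at least 2-fold changed on both arrays, and others are named as called or as said beside them. The brightest gamma delta T cell marker is not reported here. In the chromosome stretch, genes outside the lists are named only if 2-fold changed, and the 3 genes nearest to Klrb1c are named. The number of arrays limits the precision. Array files hold no probe sequences, and exons were not assigned.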

Additional observations from a re-analysis of the deposited data

How the results depend on the processing

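Under 11 other settings, the 64 ratios of the 6 tested Klr genes all stayed positive, and 12 of them were called by limma, against 0 as reported. Only median centring, the processed signals and the value table formed all the ratios anew. The settings without 1 array give the single-array ratios, and the rest reuse the reported ratios, apart from the mean of probes for Klrk1. The sign of a reused ratio could not change, so the 64 are no independent support. The count of genes called was 4 with median centring, 2 with processed signals, 1 with the value table of the series and 5 on separate channels. It was 0 without the filter on dim probes, with both channels required above background, with the mean of a gene's probes and with every probe as its own test. With no replicate block, which ignores that channels share an array, 2-group limma on single channels called 0, against the 5 on separate channels with the array as a block. The median of the tested genes was 1.21 as reported, 1.28 with median centring, 2.06 with processed signals, 2.06 with the value table, 0.58 without the filter, which brings in genes well above background in no channel, 1.38 with both channels above background and 1.15 with every probe. The count at least 2-fold higher on both arrays was 4 as reported, 3 with both channels above background and 6 with processed signals or the value table. With 1 array left out the median ran from 1.21 to 1.22 and 4 genes were 2-fold higher either way, and no test was possible with 1 array. Apart from what the settings' own construction shows, the cause was not tested. Signals near background limit Klrk1, Klrc2 and the 4 genes that were not tested.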
